A study of Mus musculus with 15 samples.

Results

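Expression of 10 genes of the myostatin and activin pathway was examined in the tibialis anterior muscle of mice that lacked myotubularin or carried it, with and without tamoxifen. The genes were chosen by symbol, and each matched a single row of the 30672 genes counted. They encode the ligands *Mstn*, *Gdf11*, *Inhba* and *Inhbb*, the secreted inhibitors *Fst*, *Fstl3* and *Wfikkn2*, and the receptors *Acvr2a*, *Acvr2b* and *Acvr1b*. All 10 had enough counts to be tested among 15533 genes. The 15 libraries came from male 129Pas mice aged 7 weeks, and the groups were wild type (WT, n = 4), wild type given tamoxifen (WT + TAM, n = 4), hemizygous mutant (Mtm1-/y, n = 4) and mutant given tamoxifen (Mtm1-/y + TAM, n = 3). *Mtm1* is an X-linked gene for a phosphoinositide phosphatase, and its loss in these males models X-linked myotubular myopathy. Tamoxifen binds oestrogen receptors and blocks or activates them depending on the tissue. The sources used here do not give how much was given, by which route or for how long. The labels number the replicates of each group without stating that each was a separate animal, so p-values measure the spread between libraries, which may be in part technical.

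Myostatin, the product of *Mstn*, is secreted mainly by muscle fibres and limits muscle mass. It and the closely related GDF11 and activins bind the type II receptors ACVR2A and ACVR2B, which recruit a type I receptor such as ACVR1B, and the complex phosphorylates SMAD2 and SMAD3. Follistatin (*Fst*) and follistatin-like 3 (*Fstl3*) bind activins and myostatin, and WFIKKN2 binds myostatin and GDF11, so that these ligands are kept from their receptors.

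In GRCm38, *Mstn* lies on the plus strand at chr1:53061640-53068079 and *Inhbb* on the minus strand of the same chromosome at chr1:119415465-119422248. *Gdf11* (minus strand, chr10:128882295-128891718) and *Fstl3* (plus strand, chr10:79777272-79782630) share chromosome 10, and *Inhba* (plus strand, chr13:16011851-16031621) and *Fst* (minus strand, chr13:114452290-114458951) share chromosome 13. *Wfikkn2* is on the minus strand at chr11:94235956-94246005. The receptor genes *Acvr2a* (chr2:48814109-48903269), *Acvr2b* (chr9:119402118-119434995) and *Acvr1b* (chr15:101174067-101213684) are on plus strands. The 250 bases before the start of *Mstn*, the member with the largest fall, are shown with its E-boxes (CANNTG, the motif of basic helix-loop-helix factors such as MyoD) in capitals, from RefSeq on GRCm38.p6, plus strand, chr1:53061390-53061639.
Mstn promoter: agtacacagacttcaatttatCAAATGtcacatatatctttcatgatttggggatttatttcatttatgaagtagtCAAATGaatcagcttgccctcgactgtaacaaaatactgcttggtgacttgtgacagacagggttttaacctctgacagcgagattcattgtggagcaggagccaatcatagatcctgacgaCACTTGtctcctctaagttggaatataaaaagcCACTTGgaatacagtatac
The window held 4 E-boxes, and 3.84% of 32851 promoter windows of this length held 4 or more, whereas 66.2% held at least 1. CANNTG is its own reverse complement, so a match on either strand counted once. The other member windows found held 4 (*Wfikkn2*), 3 (*Fstl3*), 1 (*Gdf11* and *Acvr1b*) or 0 (*Inhba*, *Inhbb*, *Acvr2a* and *Acvr2b*). The *Wfikkn2* window, chr11:94242580-94242829, lay inside the gene coordinates given above, so it was not upstream of that gene start. The *Acvr2b* window, chr9:119401928-119402177, and the ends of the *Acvr1b* and *Fstl3* windows also reached into the gene coordinates. The SMAD3-SMAD4 motif AGCCAGACA and the palindrome GTCTAGAC, searched on both strands, were in none of the 9 member windows. They were in 0.301% and 0.167% of all windows, so their absence from 9 windows does not set the members apart. No window was found for *Fst*.

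Several members are paralogs, and the longest identical runs of their coding sequences show how far reads could be shared between them. All letters of each run are identical in the pair and are in capitals.
Mstn and Gdf11: GCCCAACTGTGG
Inhba and Inhbb: GTGGAGGAGTGTGGCTGC
Fst and Fstl3: GTGGATCAGACC
Acvr2a and Acvr2b: ATGTACGCCATGGG
These runs were 12, 18, 12 and 14 bases long, and the run of *Inhba* and *Inhbb* lay near the end of both coding sequences, at bases 1252 to 1269 of 1272 and 1213 to 1230 of 1233. No stretch of 50 bases of the transcripts of 8 members occurred in the same sense in a transcript of another gene. For *Inhba* 0.331% and for *Wfikkn2* 0.159% of such stretches did, with genes outside the pathway. Exons of 3 members overlap a gene on the opposite strand: *Fstl3* with *Prss57* (0 to 3 counts per library), *Fst* with *Gm47040* (0 to 5 counts) and *Acvr2a* with *Orc4* (275 to 794 counts). The kit kept strand, but the sources used here do not say whether counting used it, so reads of these pairs may not have been told apart.

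Total counts were 18042558 to 45823277 per library, so that a single count was worth 0.0224 to 0.053 CPM (a count relative to library size, scaled by the TMM factor of edgeR). *Mtm1* averaged 15.3 ± 0.294 CPM in WT and 3.36 ± 0.338 in Mtm1-/y (SD, n = 4 each), 4.55-fold lower (log2 fold change -2.19, adjusted p = 5.46e-08), and 3.49 ± 0.381 in Mtm1-/y + TAM (n = 3). Summed levels of 6 fibre markers, *Acta1* and *Ckm* among them, were 118696 to 150452 CPM in WT, 117385 to 139311 in WT + TAM, 92325 to 122809 in Mtm1-/y and 106628 to 112625 in Mtm1-/y + TAM, and 3 of the 6 were called lower and 1 higher in Mtm1-/y than WT (median log2 fold change -0.36). Among markers of other cells, 6 of 8 genes of satellite cells and regenerating muscle were higher and 1 lower in Mtm1-/y than WT (summed 95.8 to 167 against 38.5 to 54.6 CPM), and 5 of 5 endothelial genes were lower (191 to 264 against 376 to 493 CPM). Replicate 1 of WT + TAM stood apart, with 1078 CPM of slow fibre markers (27.3 to 67.0 in the other WT + TAM libraries) and 3138 CPM of fibroblast markers (726 to 1282). Replicate 1 of Mtm1-/y had the lowest fibroblast sum of all libraries, 339 CPM. In bulk muscle, fewer cells of a type and less RNA per cell cannot be told apart.

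Divided by the length of the longest transcript, the levels of the members in WT spanned from 20.4 ± 3.28 CPM per kb for *Mstn* to 0.0904 ± 0.0363 for *Inhba* (SD, n = 4). Below *Mstn* came *Acvr1b* at 14.7, *Acvr2a* at 5.59, *Wfikkn2* at 4.18, *Gdf11* at 1.93 and *Acvr2b* at 1.38 CPM per kb. No pair of neighbours in this upper part overlapped between libraries. *Fst* at 0.614, *Fstl3* at 0.603 and *Inhbb* at 0.382 CPM per kb followed, where *Fstl3* overlapped with both of the others. In WT muscle the myostatin transcript was thus the highest of the 10 per length and follistatin among the lowest. The longest of the 6 annotated *Fst* transcripts, of 2921 bases, has 1 exon. It may not be the main *Fst* transcript, so levels of *Fst* per length are uncertain. In Mtm1-/y the order was *Acvr1b* at 18.9, *Gdf11* at 5.63, *Acvr2a* at 4.60, *Mstn* at 4.37, *Fst* at 3.96 and *Wfikkn2* at 3.18 CPM per kb, and all of these neighbours overlapped. In Mtm1-/y + TAM *Acvr1b* at 9.49 stood above *Fst* at 5.11 CPM per kb without overlap, and *Acvr2a*, *Gdf11*, *Mstn* and *Wfikkn2* followed at 4.27 to 2.80, each overlapping with the next above it. With the union of exons as the length, *Fst* in Mtm1-/y + TAM was at 3.25 CPM per kb, below *Mstn* at 3.53. In WT + TAM *Mstn* at 28.6 and *Acvr1b* at 17.7 CPM per kb overlapped and *Acvr1b* did not overlap with *Acvr2a* at 5.15, while *Inhba* was last in each of the 4 groups.

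**Figure D1:**
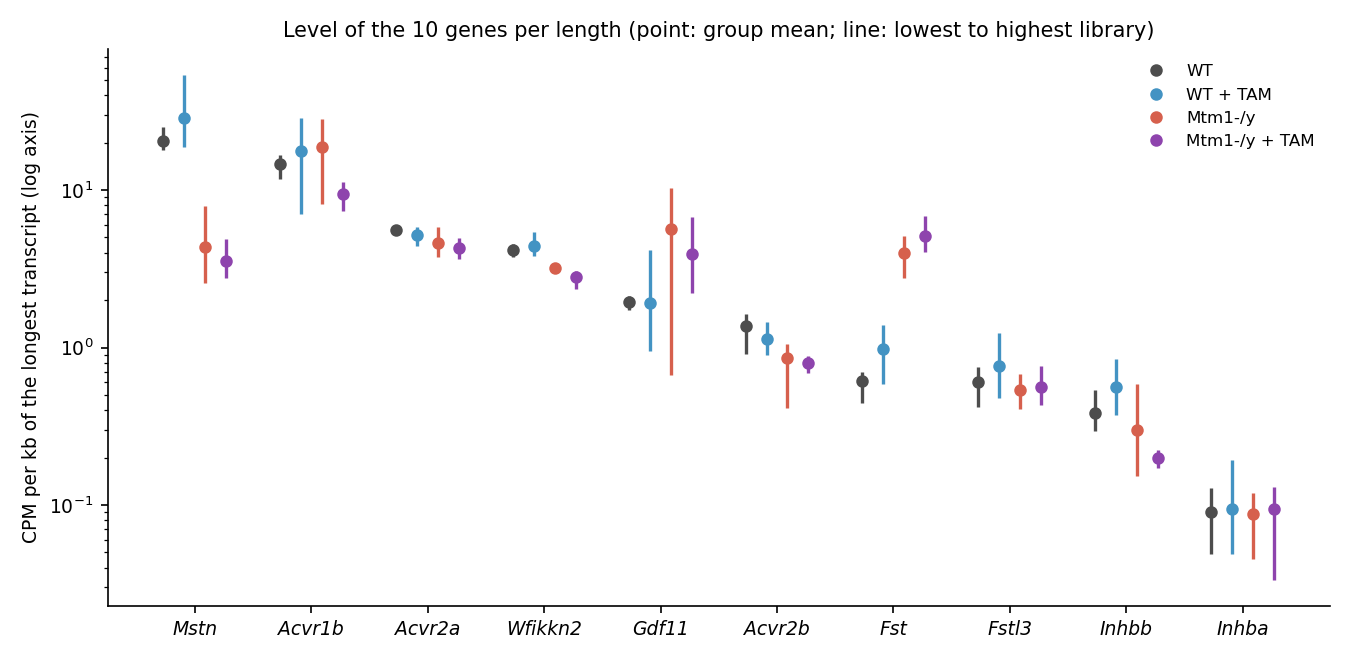
Level of each member in CPM per kb of its longest transcript (log axis), with members ordered by their WT mean; points are group means and lines run from the lowest to the highest library (n = 4, and n = 3 for Mtm1-/y + TAM). *Mstn* drops from 20.4 in WT to 4.37 in Mtm1-/y while *Fst* goes from 0.614 to 3.96.

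To determine how the loss of myotubularin was accompanied by changes in this pathway, Mtm1-/y was compared with WT. Myostatin fell and follistatin rose, each by more than the spread between libraries, and the inhibitor *Wfikkn2* was slightly lower. These 3 of 10 members were called (1 higher, 2 lower), against 30.4% of all genes tested. Likewise 3 members did not overlap between the groups, against 30.5% of all genes. Between the tamoxifen-treated groups 4 members were called (1 higher, 3 lower), against 20.1% of all genes, and 5 did not overlap, against 31.6%. The median log2 fold change of the 10 members was -0.22 without and -0.45 with tamoxifen, where all genes had medians of 0.000475 and -0.0169.

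**Figure D2:**
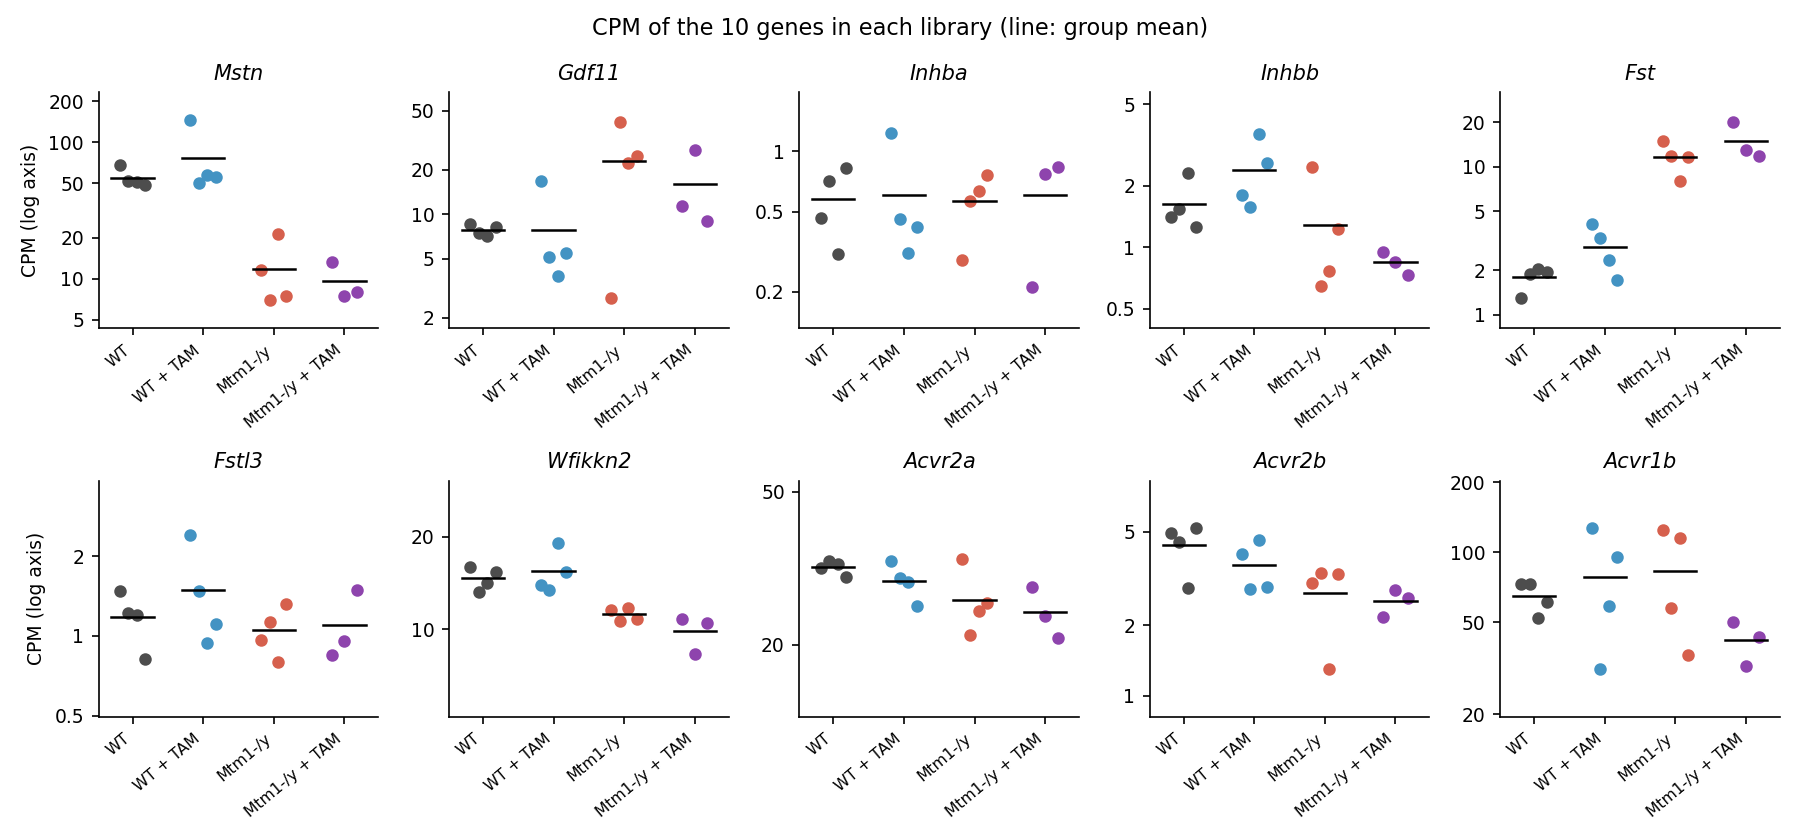
CPM of the 10 members in each library (log axis, each panel with its own range); each point is a library and each line a group mean. *Mstn* libraries of both mutant groups lie at 6.94 to 21.3 CPM, below all libraries of the WT groups, and *Fst* libraries lie at 8.07 to 19.98 CPM, above all of them.

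*Mstn* was measured at 68.3, 52.0, 51.4 and 48.9 CPM in WT and at 11.6, 6.94, 21.3 and 7.41 CPM in Mtm1-/y. Every mutant library lay below every WT library, and mutant replicate 3 was the highest of its group. The fall was 4.67-fold (log2 fold change -2.22, SE 0.41, 95% interval -3.12 to -1.33, adjusted p = 0.00169). The part in this fall of the 3 fibre markers that were also lower in Mtm1-/y was not tested. With tamoxifen, *Mstn* was at 147, 50.5, 57.3 and 55.4 CPM in WT + TAM and at 13.3, 7.44 and 7.96 CPM in Mtm1-/y + TAM. These groups did not overlap either, and WT + TAM replicate 1 was far above the others. The difference was 8.20-fold (log2 fold change -3.04, SE 0.48, adjusted p = 0.00105), and over the alternatives tried it ran from -3.33 to -2.53.

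*Gdf11*, the paralog of myostatin best known for its part in patterning the axial skeleton, was measured at 8.58, 7.51, 7.08 and 8.24 CPM in WT and at 2.72, 41.9, 22.3 and 24.6 CPM in Mtm1-/y. The lowest mutant library, replicate 1, was below all WT libraries, and the other 3 were above them. The log2 fold change of 1.53 (SE 0.66, 95% interval 0.0951 to 2.97) had an adjusted p of 0.0990 and was not called. Without Mtm1-/y replicate 1 it was 1.91 and was called (edgeR, adjusted p = 0.0154), whereas limma-voom gave 0.93 (adjusted p = 0.394) and leaving out Mtm1-/y replicate 2 gave 1.07 (edgeR, adjusted p = 0.262). In Mtm1-/y + TAM *Gdf11* was at 11.4, 27.3 and 9.04 CPM and in WT + TAM at 16.8, 5.15, 3.84 and 5.49 CPM. The groups overlapped through WT + TAM replicate 1, and the log2 fold change of 1.04 (SE 0.70, adjusted p = 0.333) was not called. It was 1.75 and called (adjusted p = 0.00823) when WT + TAM replicate 1 and Mtm1-/y replicate 1 were both left out, 1.74 without WT + TAM replicate 1 alone (adjusted p = 0.0989), and 0.38 without Mtm1-/y + TAM replicate 2 (adjusted p = 0.801). The summed fibroblast markers, listed by replicate number, were 339, 1191, 821 and 1375 CPM in Mtm1-/y and 1024, 1012, 1320 and 1263 CPM in WT. They were 3138, 1282, 726 and 1194 CPM in WT + TAM and 807, 1690 and 961 CPM in Mtm1-/y + TAM. The WT sums were thus within the range of Mtm1-/y, although *Gdf11* was lower in WT than in Mtm1-/y replicates 2, 3 and 4. The part of the fibroblast markers in the *Gdf11* values was not tested.

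The 2 activin subunit genes were at low levels. *Inhba*, the gene of the activin A subunit, was at 0.310 to 0.821 CPM in WT and 0.288 to 0.761 CPM in Mtm1-/y, which are 7 to 34 counts per library. Its log2 fold change of -0.05 had a 95% interval of -1.07 to 0.977 (adjusted p = 0.954), so changes within that range in either direction were not excluded. *Inhbb*, the gene of the activin B subunit, was at 1.40, 1.54, 2.30 and 1.26 CPM in WT and at 2.48, 0.645, 0.763 and 1.23 CPM in Mtm1-/y. Mutant replicate 1 was above all WT libraries and the other 3 below them, and the log2 fold change of -0.31 was not called (adjusted p = 0.570). With tamoxifen *Inhbb* was at 1.80, 1.58, 3.59 and 2.59 CPM in WT + TAM and at 0.954, 0.847 and 0.730 CPM in Mtm1-/y + TAM. The groups did not overlap, and *Inhbb* was 2.89-fold lower in the mutants (log2 fold change -1.53, SE 0.43, adjusted p = 0.0202). This call was lost without replicate 3 of WT + TAM and without replicate 2 or replicate 3 of the treated mutants (edgeR, adjusted p = 0.0663, 0.0722 and 0.0787).

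*Fst* was measured at 1.30, 1.90, 2.04 and 1.94 CPM in WT and at 14.9, 11.8, 8.07 and 11.6 CPM in Mtm1-/y. All mutant libraries were above all WT libraries, and the lowest mutant library was replicate 3, the one with the highest *Mstn*. The rise was 6.51-fold (log2 fold change 2.70, SE 0.27, 95% interval 2.12 to 3.28, adjusted p = 9.58e-06). With tamoxifen *Fst* was at 4.09, 3.31, 2.34 and 1.72 CPM in WT + TAM and at 19.98, 13.1 and 11.8 CPM in Mtm1-/y + TAM. These groups did not overlap, and the rise was 5.23-fold (log2 fold change 2.39, SE 0.28, adjusted p = 5.40e-05). The summed markers of satellite cells and regenerating muscle were 95.8 to 167 CPM in Mtm1-/y and 132 to 187 CPM in Mtm1-/y + TAM, above the 38.5 to 66.1 CPM of the WT groups, and their part in the rise of *Fst* was not tested.

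The other inhibitors differed less. *Wfikkn2* was at 16.0, 13.2, 14.1 and 15.4 CPM in WT and at 11.6, 10.6, 11.7 and 10.8 CPM in Mtm1-/y. The groups did not overlap, and the level was 1.31-fold lower in the mutants (log2 fold change -0.39, SE 0.12, adjusted p = 0.0216). The call was lost without WT replicate 1, WT replicate 4 or Mtm1-/y replicate 2 and without the count filter (edgeR, adjusted p from 0.0504 to 0.0635). With tamoxifen *Wfikkn2* was at 13.98, 13.5, 19.1 and 15.3 CPM in WT + TAM and at 10.8, 8.29 and 10.4 CPM in Mtm1-/y + TAM. It was 1.58-fold lower without overlap (log2 fold change -0.66, SE 0.13, adjusted p = 0.00315), a call kept in 24 of 24 alternatives. *Fstl3* was at 0.821 to 1.48 CPM in WT, 0.941 to 2.41 in WT + TAM, 0.794 to 1.32 in Mtm1-/y and 0.848 to 1.49 in Mtm1-/y + TAM. All groups overlapped, and its log2 fold change of -0.16 between Mtm1-/y and WT had a 95% interval of -0.816 to 0.495 (adjusted p = 0.731).

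No receptor gene was called between genotypes. *Acvr2a*, the more abundant type II receptor per length, was at 30.0 to 33.1 CPM in WT and at 33.4, 21.2, 24.5 and 25.6 CPM in Mtm1-/y. Mutant replicate 1 was above all WT libraries and the other 3 below them, so that the log2 fold change came to -0.28 with an SE of 0.13 (adjusted p = 0.116). Without that library it was -0.42 and was called (edgeR, adjusted p = 0.0111). *Acvr2b*, the other type II receptor, was at 4.94, 4.50, 2.88 and 5.16 CPM in WT and at 3.01, 3.35, 1.30 and 3.29 CPM in Mtm1-/y. WT replicate 3 overlapped with the mutants, and the log2 fold change of -0.68 (SE 0.27) had an adjusted p of 0.0652. It was called by limma-voom (log2 fold change -0.76, adjusted p = 0.0449) and without WT replicate 3 (edgeR, -0.83, adjusted p = 0.0352). In the treated groups *Acvr2b* was at 2.85 to 4.61 CPM in WT + TAM and 2.17 to 2.81 CPM in Mtm1-/y + TAM, with no overlap and no call (log2 fold change -0.50, adjusted p = 0.250).

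*Acvr1b*, the type I activin receptor, varied more than the type II receptors between the libraries of WT + TAM and of Mtm1-/y. It was at 73.0, 73.3, 51.8 and 61.3 CPM in WT and at 127, 31.4, 58.6 and 95.4 CPM in WT + TAM. In Mtm1-/y it was at 125, 57.6, 115 and 36.2 CPM and in Mtm1-/y + TAM at 50.03, 32.5 and 43.2 CPM. The coefficient of variation was 15.9% in WT, 53.7% in WT + TAM, 51.8% in Mtm1-/y and 21.1% in Mtm1-/y + TAM, and all groups overlapped except WT with Mtm1-/y + TAM, which were not compared. The genotype difference was not called without tamoxifen (log2 fold change 0.36, adjusted p = 0.545) or with it (-0.90, adjusted p = 0.192).

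**Figure D3:**
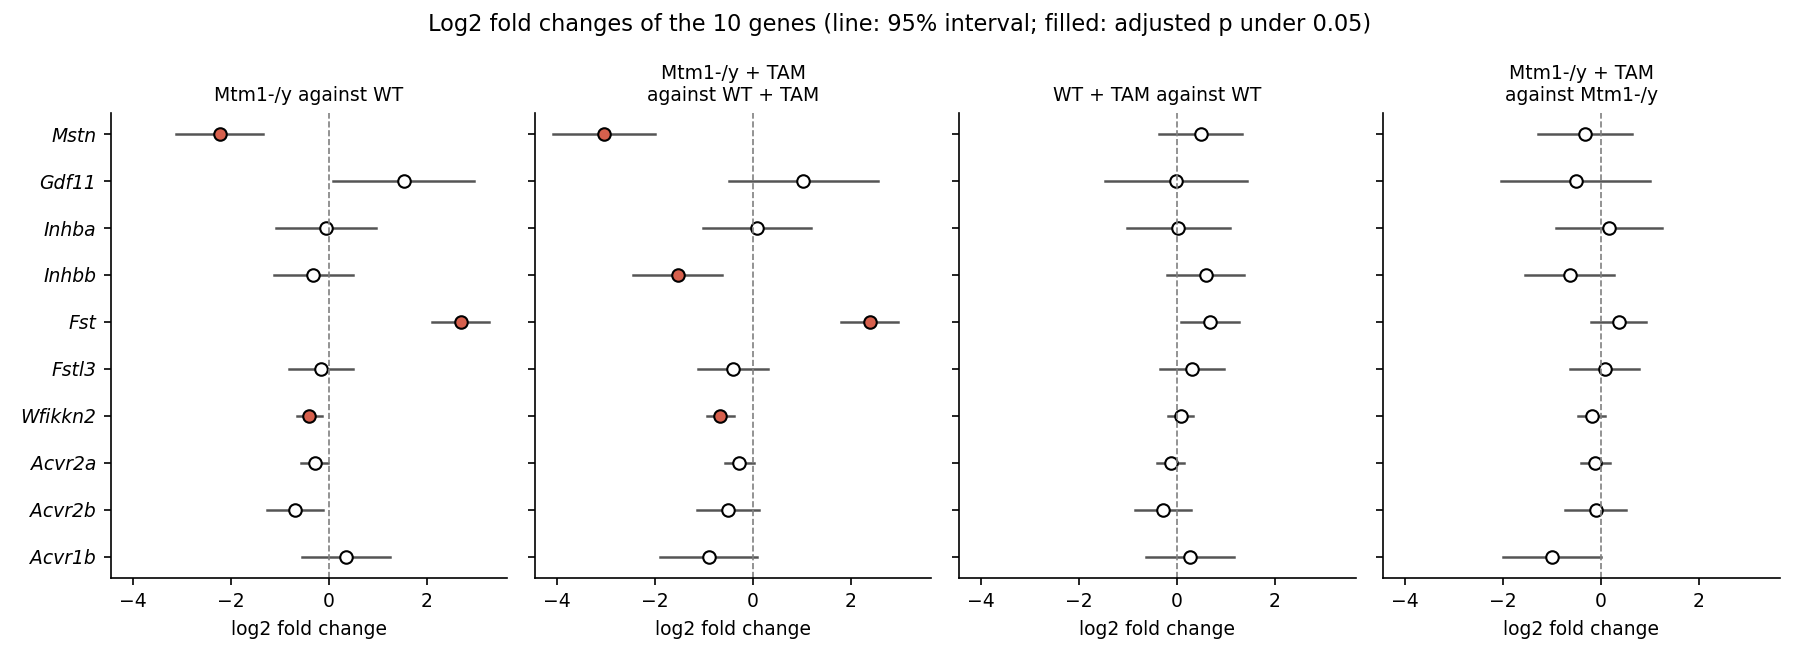
Log2 fold change of each member in 4 comparisons (x axis); points are edgeR estimates, lines their 95% intervals, and filled points passed an adjusted p of 0.05 over all genes. *Mstn*, *Fst* and *Wfikkn2* are filled in both genotype comparisons and *Inhbb* in the treated one, and no point is filled in the tamoxifen comparisons.

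To determine whether tamoxifen changed the pathway, treated mice were compared with untreated mice of the same genotype. In WT, 0 of 10 members were called (edgeR, and 0 by DESeq2 and by limma-voom), against 0.309% of all genes, and 0 did not overlap, against 8.08% of all genes. An unadjusted p under 0.05 was reached by 1 member of 10 and by 1757 of all 15533 genes. That member was *Fst*, 1.596-fold higher in WT + TAM with overlapping groups (log2 fold change 0.67, 95% interval 0.0836 to 1.27, adjusted p = 0.370). *Mstn* had a log2 fold change of 0.49 (adjusted p = 0.690), which was -0.02 without WT + TAM replicate 1. In the mutants, 0 members were called by any of these tools, against 0.0129% of all genes, and 0 did not overlap, against 5.71%. There 0 members and 861 of all 15533 genes had an unadjusted p under 0.05. Neither *Mstn* nor *Fst* showed a detectable difference between treated and untreated mutants, with log2 fold changes of -0.32 for *Mstn* (95% interval -1.29 to 0.639, adjusted p = 0.919) and 0.36 for *Fst* (-0.198 to 0.916, adjusted p = 0.877). The *Mstn* value was 0.11 without Mtm1-/y replicate 3. For *Fst* the interval left out any fall larger than 0.198, and for *Mstn* any rise larger than 0.639 on the log2 scale. The difference nearest to the threshold was that of *Acvr1b*, 1.99-fold lower in Mtm1-/y + TAM (log2 fold change -0.995, 95% interval -1.995 to 0.005, adjusted p = 0.855).

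The interaction, which tests whether the genotype difference was altered by tamoxifen, was called for 0 members and 0.0% of all genes (1650 genes had an unadjusted p under 0.05). DESeq2 called 74 genes and limma-voom 0, and 0 members with either. The unadjusted p was under 0.05 for 1 member, *Inhbb* (log2 difference -1.22, 95% interval -2.43 to -0.0213, adjusted p = 0.467). Its call between the treated genotypes and the lack of one between the untreated genotypes were therefore not shown to differ. For *Mstn* the log2 difference was -0.81 (-2.10 to 0.472, adjusted p = 0.640) and for *Fst* -0.31 (-1.13 to 0.497, adjusted p = 0.785).

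The balance of ligand and inhibitor was described by the ratio of *Mstn* to *Fst* within each library, per length of the longest transcript. For *Fst* that transcript has 1 exon and may not be the main one. This ratio was 27.3 to 56.6 in WT (median 28.4) and 16.4 to 38.7 in WT + TAM (median 30.7). In Mtm1-/y it was 0.636 to 2.85 (median 0.767) and in Mtm1-/y + TAM 0.616 to 0.731 (median 0.716). The WT groups lay above the mutant groups without overlap. Which of the 2 transcripts was the more abundant in the mutants depended on the length used: with the union of all exons, which for *Fst* is 4589 in place of 2921 bases, the median ratios were 44.7 in WT, 48.2 in WT + TAM, 1.21 in Mtm1-/y and 1.12 in Mtm1-/y + TAM. Among the ligands, *Gdf11* was 0.0837 to 0.112 of *Mstn* in WT and 0.156 to 4.02 of it in Mtm1-/y, with Mtm1-/y replicate 1 the lowest mutant. The ratio of *Acvr2a* to *Acvr2b* was 3.24 to 6.28 in WT and 3.54 to 10.5 in Mtm1-/y, and these ranges overlapped.

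**Figure D4:**
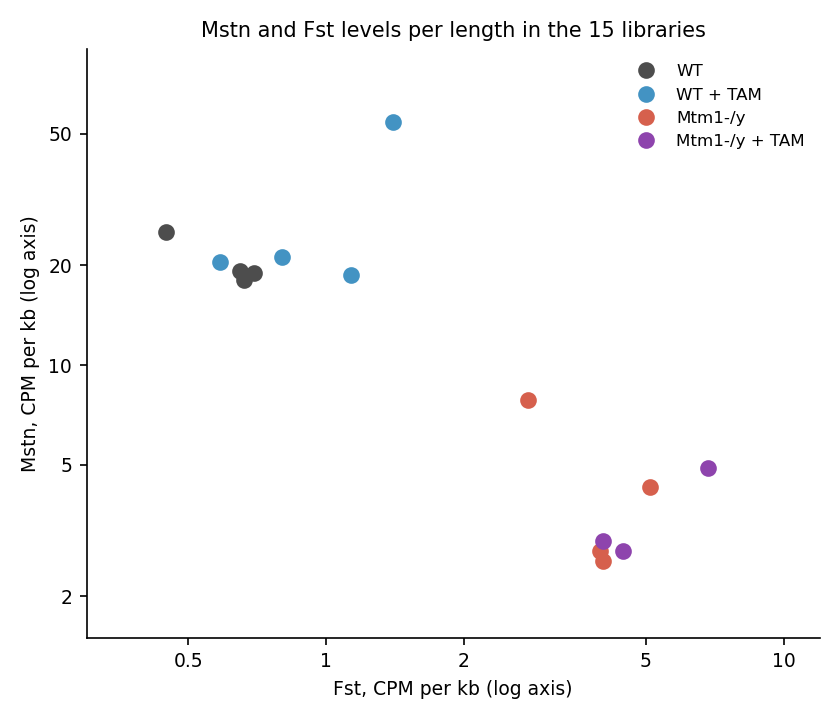
*Mstn* (y axis) against *Fst* (x axis) in CPM per kb of the longest transcript, both on log axes, with a point for each of the 15 libraries. The WT and WT + TAM libraries lie at high *Mstn* and low *Fst*, the 7 mutant libraries at the opposite end, with Mtm1-/y replicate 3 nearest to the WT groups.

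The wider pathway was described by 70 further genes in 6 lists, of which 64 were tested. Between Mtm1-/y and WT, 13 were higher and 9 lower, against 15.5% and 14.9% of all genes. Between the treated genotypes 7 were higher and 8 lower, against 10.6% and 9.46% of all genes, and 0 were called in either tamoxifen comparison or the interaction by edgeR. An unadjusted p under 0.05 was reached by 9 list genes for tamoxifen in WT, 3 in the mutants and 8 in the interaction. Of all 15533 genes, 1757, 861 and 1650 reached it. DESeq2 called 2, 0 and 1 list genes there and limma-voom 0 in each. *Acvr1c*, *Gdf15*, *Grem1*, *Nodal* and *Tdgf1* had too few counts to be tested (at most 31 in a library), and *Inhbe* was not among the 30672 genes counted.

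**Figure D5:**
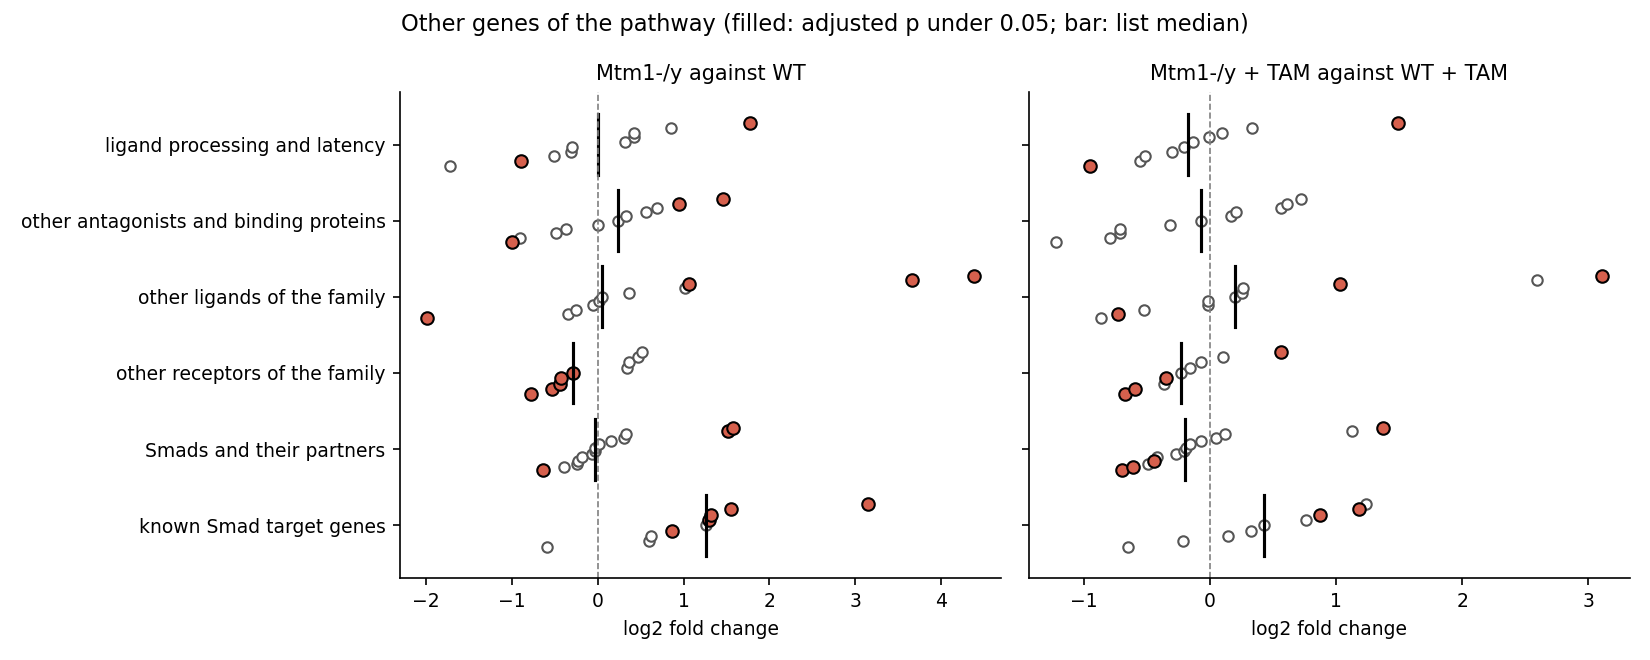
Log2 fold change (x axis) of the tested genes of the 6 lists between genotypes, untreated on the left and treated on the right; each point is a gene, filled where the adjusted p was under 0.05, and bars are list medians. The median of the Smad target list lies at 1.27 without and 0.42 with tamoxifen.

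Among 10 genes of ligand processing and latency, 1 was higher and 1 lower in Mtm1-/y (median log2 fold change 0.0068). *Ltbp1*, which holds latent TGF-beta in the matrix, went from 17.5 ± 1.28 CPM in WT to 59.9 ± 16.1 in Mtm1-/y (SD, n = 4 each; log2 fold change 1.77, adjusted p = 1.24e-05), and *Pcsk6*, a proprotein convertase, fell by 0.89 on the log2 scale (adjusted p = 0.00360). With tamoxifen *Ltbp1* was again higher (1.49, adjusted p = 0.000134), and the tolloid protease gene *Tll1* was lower (-0.95, adjusted p = 0.0377). Of 11 tested genes of other antagonists, 2 were higher and 1 lower (median 0.24). These were *Chrd*, the BMP antagonist chordin (log2 fold change 0.94, adjusted p = 0.0107), *Wfikkn1*, the paralog of *Wfikkn2* (1.46, adjusted p = 0.0267), and *Inha*, the inhibin alpha subunit (39.6 ± 2.58 against 19.8 ± 3.98 CPM, log2 fold change -0.997, adjusted p = 0.0155). Between the treated genotypes edgeR called 0 of this list and DESeq2 called 1. An unadjusted edgeR p under 0.05 was reached there by 3 of the 11 and by 5241 of all 15533 genes.

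Of 11 tested further ligands, 3 were higher and 1 lower in Mtm1-/y (median 0.05). *Gdf5*, a BMP family ligand, was at 0.517 to 0.929 CPM in WT and at 1.27 to 23.8 CPM in Mtm1-/y without overlap (log2 fold change 3.66, SE 0.71, adjusted p = 0.00222), and it was also higher with tamoxifen (3.11, adjusted p = 0.0105). *Tgfb1* was higher in both comparisons (1.07 and 1.03, adjusted p = 0.00623 and 0.0164). *Gdf6* (4.38, adjusted p = 0.00945) and *Bmp7* (-1.98, adjusted p = 0.00724) were called without tamoxifen at low levels, and *Bmp6* was lower with it (-0.73, adjusted p = 0.0451).

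Of 9 tested further receptors, 0 were higher and 5 lower in Mtm1-/y (median -0.29), against 15.5% and 14.9% of all genes. The lower receptor genes were *Eng*, an endothelial co-receptor (62.1 ± 4.36 against 36.1 ± 7.83 CPM, log2 fold change -0.78, adjusted p = 0.00306), *Acvrl1*, an endothelial type I receptor (-0.43), and the BMP receptors *Acvr1* (-0.53), *Bmpr1a* (-0.44) and *Bmpr2* (-0.29). The summed endothelial markers were 376 to 493 CPM in WT and 191 to 264 CPM in Mtm1-/y, and their part in these values was not tested. The 4 receptor genes not called all had positive log2 fold changes. They were *Tgfbr1* (0.34, edgeR adjusted p = 0.0525), *Tgfbr2* (0.37, 0.0584), *Tgfbr3* (0.47, 0.0614) and *Bmpr1b* (0.52, 0.271). DESeq2 called 8 of the list, 3 higher and 5 lower. Between the treated genotypes *Eng* (-0.67), *Bmpr1a* (-0.59) and *Bmpr2* (-0.35) were lower and *Tgfbr2*, the type II TGF-beta receptor, was higher (0.56, adjusted p = 0.0172).

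Among 14 Smads and their partners, 2 were higher and 1 lower in Mtm1-/y (median -0.03). *Smurf2*, a ubiquitin ligase of the pathway, went from 33.6 ± 2.86 to 21.6 ± 2.35 CPM (log2 fold change -0.63, adjusted p = 0.000192), and *Tgif1*, a repressor that binds SMADs, was higher (1.57, adjusted p = 0.00526), as was *Smad9* (1.51, adjusted p = 0.00745). With tamoxifen *Smurf2* (-0.70), *Smad4* (-0.61) and *Ski* (-0.45) were lower and *Tgif1* (1.37) was higher. *Smad2*, *Smad3* and *Smad7* were not called in either genotype comparison.

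Of 9 known Smad target genes, 5 were higher and 0 lower in Mtm1-/y, against 15.5% and 14.9% of all genes. The list median was 1.27. The called genes were *Cdkn1a*, the cell cycle inhibitor p21, at 37.5 ± 16.8 CPM in WT and 331 ± 61.9 in Mtm1-/y (log2 fold change 3.15, adjusted p = 0.000302), *Ccn2* (1.55), *Id1* (1.32), *Id2* (1.30) and *Fbxo30* (0.86). *Cdkn1a* is also a target of p53 and MyoD, *Id1* and *Id2* are known chiefly as targets of BMP signalling, and *Fbxo30* encodes a muscle ubiquitin ligase that BMP signalling represses, so the list does not report on myostatin and activin alone. *Pmepa1*, a feedback inhibitor induced by TGF-beta, had a log2 fold change of -0.59 (adjusted p = 0.150). Between the treated genotypes *Id2* (1.18) and *Fbxo30* (0.87) were higher and the median was 0.42. *Cdkn1a* was at 133 ± 92.8 CPM in WT + TAM (log2 fold change 1.84 against WT, adjusted p = 0.110) and at 314 ± 32.0 CPM in Mtm1-/y + TAM.

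The genes whose log2 CPM followed a member most closely over the 15 libraries were listed as a description. The libraries share their groups, so such a correlation can repeat differences between groups. For *Mstn* the highest Pearson correlations were with *Ghr*, the growth hormone receptor (r = 0.978), *March6* (0.969) and *Fam19a4* (0.958), and the lowest with *Rhoc* (-0.989), *Chmp2a* (-0.963) and *Tnfrsf23* (-0.961). For *Fst* the highest were *Osbpl5* (r = 0.987), the transcription factor *Runx1* (0.975) and the neuregulin receptor *Erbb2* (0.972), and the lowest *Ybx2* (-0.971). For *Inhbb* the highest were *Apba3* (0.949), *Kansl2* (0.929) and *Srebf1* (0.905). After the group means were taken out, *Mstn* went with *Cacna2d1* (0.925) and *Hk2* (0.916) and against *Rhoc* (-0.919), and *Fst* went with *Pcdhb6* (0.917) and *Osbpl5* (0.879). Among all pairs of members, the highest correlation of within-group deviations was that of *Mstn* and *Acvr1b* (r = 0.746). The lowest was that of *Gdf11* and *Inhbb* (r = -0.735). Replicate 1 of WT + TAM was the highest of its group for both *Mstn* and *Acvr1b*. Replicate 1 of Mtm1-/y had the lowest *Gdf11* (2.72 CPM) and the highest *Inhbb* (2.48 CPM) of its group.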

How the data were processed

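Polyadenylated RNA of tibialis anterior was sequenced as TruSeq stranded libraries. The values deposited by the authors are raw counts per Ensembl gene, with no normalization. Per the submitters' processing notes, cutadapt 1.10, Bowtie2 2.2.8, STAR 2.5.3a and HTSeq 0.6.1p1 were used with mm10 and GRCm38. The sources used here give neither the role of each nor the annotation or strand setting. All 30672 identifiers matched GENCODE M21, from which symbols, coordinates and lengths were taken. Reads were not analysed here.

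Groups were taken from the labels. Counts were fitted with edgeR 4.0.16 in R 4.3.3 (filterByExpr, minimum count 10, TMM, 4 group means over all 15 libraries, robust quasi-likelihood, 11 residual degrees of freedom). A gene was called at a Benjamini-Hochberg adjusted p under 0.05 over the 15533 genes tested. Log2 CPM for correlations had a prior count of 2. No 2 columns were identical, and within-group correlations were 0.961 to 0.990. All 10 members were named. From each list the rule named the highest and lowest called gene whose mean log2 CPM was 0 or more in each genotype comparison, and further list genes were named after their values were seen, as were the members shown in the last paragraph on within-group deviations. Single values of some genes are not reported here. Members and lists were chosen with earlier results of these data known. The fit was tested on simulated data for each comparison of 2 groups. Of 1.5-fold changes it recovered 9.7% (Mtm1-/y + TAM against Mtm1-/y) to 32.1% (WT + TAM against WT). It recovered 52.2% to 63.4% of 2-fold and 74.2% to 84.1% of 4-fold changes, and 2.01% to 6.77% of calls were false. The simulated counts had few changed genes, the same base level in all groups, the fitted dispersions and no library that stood apart. In the data 30.4% of genes were called between Mtm1-/y and WT and some libraries stood apart, so these rates may not carry over. Alternatives were other scalings, filters, DESeq2 1.42.0, limma-voom (limma 3.58.1), 2-group fits, a replicate block, a fold threshold, leaving out libraries, and another gene length.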

Additional observations from a re-analysis of the deposited data

Results flagged for a closer look

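Among 30 sets of 4 libraries (10 members in each of the 3 groups of that size), the highest or lowest library stood apart from the rest by Dixon's criterion (0.829 for 4 libraries) in 5, where chance alone would mark about 1 in 20. The *Mstn* level of 68.3 CPM in WT replicate 1 lay above the 48.9 to 52.0 CPM of the other WT libraries. Replicate 1 of WT + TAM held 3 of the 5, with *Mstn* at 147 CPM (50.5 to 57.3 in the others), *Gdf11* at 16.8 CPM (3.84 to 5.49) and *Inhba* at 1.23 CPM (0.314 to 0.459). *Acvr2b* at 1.30 CPM in Mtm1-/y replicate 3 lay below the 3.01 to 3.35 CPM of its group.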

How the results depend on the processing

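The calls of *Mstn* and *Fst* between genotypes, untreated and treated, held in 24 of 24 alternatives each, with log2 fold changes of -2.65 to -2.04 and 2.56 to 2.86 untreated and -3.33 to -2.53 and 2.13 to 2.61 treated. The calls of the other members are limited as stated beside them. *Inhba* and *Fstl3* gave no value at a minimum count of 50, and no member was under the count filter, so the permutation test planned for such members was not needed. A count of 0 would allow up to 3 counts in a library, and such limits cover counting error only.

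With single libraries left out, 2 to 5 members were called between Mtm1-/y and WT, 3 to 4 between the treated genotypes and 0 in the other comparisons. All genes called then ranged from 3693 to 5116 between Mtm1-/y and WT, from 1656 (without Mtm1-/y + TAM replicate 2) to 4097 between the treated genotypes, from 11 to 143 between WT + TAM and WT, from 0 to 5 between Mtm1-/y + TAM and Mtm1-/y and from 0 to 7 for the interaction. With WT + TAM replicate 1 and Mtm1-/y replicate 1 both left out, 5 members were called between Mtm1-/y and WT, and all genes called were 347 for WT + TAM against WT, 7 for Mtm1-/y + TAM against Mtm1-/y and 14 for the interaction. DESeq2 called 298, 4 and 74 genes in these 3 comparisons, and genes without a count filter came to 1 and 2 in the last 2 of them. A fit of the 2 mutant groups alone called 1 gene. An absolute log2 fold change over 1 as a further condition left 1536 genes between Mtm1-/y and WT and 934 between the treated genotypes.

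For the lists, DESeq2 called 4 processing genes and 8 further receptors between Mtm1-/y and WT (3 of the receptors higher), 1 antagonist between the treated genotypes, 1 Smad gene and 1 target gene between WT + TAM and WT, and 1 Smad gene in the interaction. Limma-voom called 1 processing gene and 1 further ligand between the treated genotypes, and upper-quartile factors gave 5 Smad genes between Mtm1-/y and WT. With both libraries left out, 5 Smad genes were called between Mtm1-/y and WT, 3 antagonists, 5 ligands and 7 Smad genes between the treated genotypes, and 1 processing gene, 1 ligand and 1 target gene between WT + TAM and WT. The median log2 fold change was then 0.88 for target genes between Mtm1-/y and WT, 0.33 for antagonists between the treated genotypes, and 0.30 for ligands between Mtm1-/y + TAM and Mtm1-/y.

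Changes of sign were seen only in log2 fold changes that were not called, with the cause not tested. With single libraries left out, *Inhba* ranged from -0.25 to 0.18 between Mtm1-/y and WT and from -0.18 to 0.71 between the treated genotypes. Between WT + TAM and WT the ranges were -0.0198 to 0.65 for *Mstn*, -0.72 to 0.22 for *Gdf11*, -0.58 to 0.28 for *Inhba*, -0.0303 to 0.50 for *Fstl3*, -0.043 to 0.14 for *Wfikkn2* and -0.069 to 0.53 for *Acvr1b*. Between Mtm1-/y + TAM and Mtm1-/y they were -0.62 to 0.11 for *Mstn*, -0.10 to 0.50 for *Inhba*, -0.22 to 0.21 for *Fstl3*, -0.23 to 0.026 for *Acvr2a* and -0.34 to 0.0016 for *Acvr2b*. For the interaction they were -1.15 to 0.21 for *Gdf11*, -0.14 to 0.76 for *Inhba*, -0.53 to 0.11 for *Fstl3*, -0.11 to 0.15 for *Acvr2a* and -0.062 to 0.33 for *Acvr2b*. With both libraries left out, *Inhba* was 0.18 between Mtm1-/y and WT. Between WT + TAM and WT, *Mstn* was then -0.0195, *Inhba* -0.59, *Fstl3* -0.0371 and *Acvr1b* -0.0675. Between Mtm1-/y + TAM and Mtm1-/y, *Inhba* was -0.0394 and *Acvr2a* 0.0241, and in the interaction *Fst* was 0.0511 and *Fstl3* 0.0752. *Gdf11* was 0.00298 by DESeq2 and *Inhba* -0.15 by limma-voom between WT + TAM and WT, and *Gdf11* was 0.27 by limma-voom in the interaction. The interaction of *Acvr2a* was -0.0126 with relative log expression factors, -0.0145 by DESeq2 and -0.000943 without a count filter.

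Replicate numbers are shared between groups, but the labels do not tie them to a litter or batch. Deviations of same-numbered libraries from their group means correlated at -0.113 to 0.306 over 21 pairs, 6 of which were over 0.1, and 5 of 15 libraries went best with their own number. Pairs of different number from different groups correlated at -0.338 to 0.214. The count of best matches to be met by chance was not worked out, so these values do not show a pairing. With the replicate number as a block, the members called were unchanged in number (3, 0, 0, 4 and 0), all genes called were 4473, 33, 2, 2792 and 0 in the same order (untreated genotypes, tamoxifen in WT, tamoxifen in the mutants, treated genotypes and interaction), and the *Acvr2a* interaction was -0.0131. With the union of exons as the length, the levels of *Fst* in WT and both mutant groups, of *Wfikkn2* in Mtm1-/y and of *Acvr2b* in Mtm1-/y + TAM moved by more than the SD between libraries.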
